A study of Mus musculus with 8 samples.

Results

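The mRNA levels of 9 genes of retinoid binding, metabolism and signalling were compared between mouse corneas given BAC and PBS. The genes were chosen by gene symbol, namely Crabp2, Stra6, Rdh10, Dhrs9, Dhrs3, Rara, Rarb, Rarg and Rxra, and all 9 stood in the deposited table of 13437 genes, each on 1 row. Corneas came from mice of strain C57BL/6, all female, that were 6 to 8 weeks old. In the BAC group, a model of dry eye disease, both eyes received drops of 5 µl of 0.2% BAC 2 times a day over 7 days. In the PBS group both eyes received PBS. No genotype or transgene is named for either group. The groups held 4 samples each; how many corneas or animals were pooled per sample is not given in the sources used here, so p-values measure only the spread between these samples, which may be technical. Expression was given as FPKM, the fragments assigned to a gene per kilobase of its length, scaled to the library's size, so levels may be set side by side between genes.

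Retinoids are the family of vitamin A. Cells take up retinol, oxidise it to retinal and then to retinoic acid, and retinoic acid binds RAR receptors, which sit on DNA as pairs with RXR receptors and switch target genes on or off. In the eye surface, lack of vitamin A is known to turn the moist epithelium into a dry, keratinised one.

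BAC corneas held far more mRNA of the retinoic acid carrier Crabp2 and of the retinol importer Stra6, and more of the oxidoreductases Rdh10 and Dhrs9 and of the receptors Rara and Rarb. They held less mRNA of the receptors Rarg and Rxra, while the retinal reductase Dhrs3 did not pass the test. Of the members, 6 were therefore higher and 2 lower at an adjusted p of 0.05 (limma on log2(FPKM + 1), Benjamini-Hochberg over all genes tested), beside 45.1% of all 12967 tested genes higher and 22.6% lower, or 67.6% in either direction. Of all calls 66.6% were higher on the deposited FPKM, 51.4% when scaled by the median of ratios and 44.1% when quantile-normalized. The 9 members all had a mean of at least 0.5 FPKM over the 8 samples, the minimum for testing; Stra6 and Dhrs9 reached it only through the BAC group, so that their direction was set by the filter. For 8 members no BAC value lay within the PBS range or the reverse, beside 63.5% of all genes tested.

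**Figure D1:**
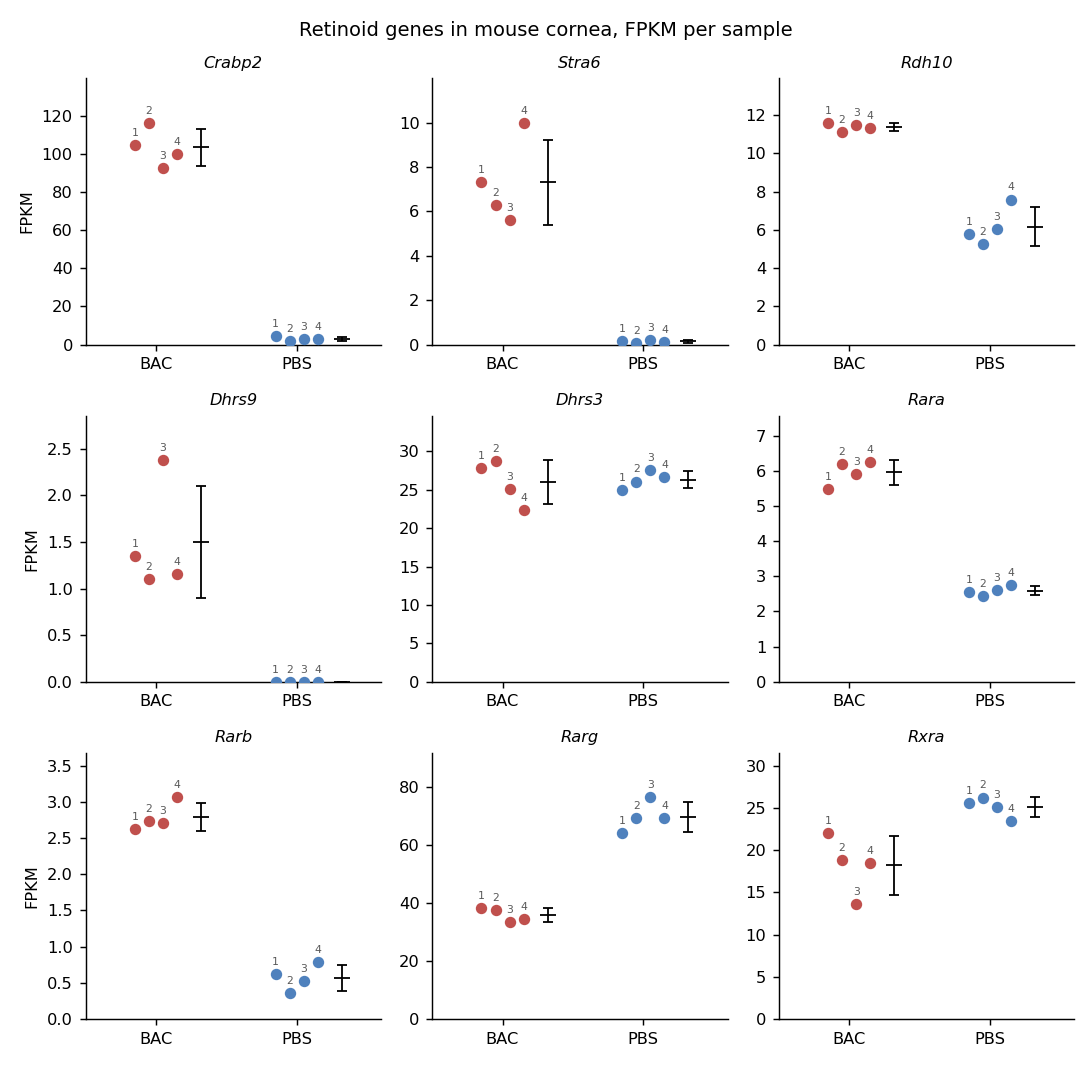
FPKM of the 9 retinoid genes in each cornea sample, with BAC left of PBS in each panel; points are samples, small digits their replicate numbers, and black marks the mean ± SD of 4 samples. The groups are separate in each panel except that of Dhrs3, with Crabp2 between 92.6 and 116 FPKM in BAC samples and at or below 4.34 FPKM in PBS samples.

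The sequences shown here bear on where the receptor genes are started. RAR and RXR pairs are known to bind 2 copies of a hexamer in the same orientation. Promoter windows from RefSeq (GRCm38.p6, 250 bases before to 50 after each start) were searched on both strands for 2 hexamers, with 5 bases between them, where a hexamer could read AGGTCA or else AGTTCA, or with a changed start GGTTCA or else GGGTCA. Such a repeat stood in 0.0974% of 32851 windows. Of the 17 windows of 7 members, 1 held it, that of Rarb. The Rarb repeat is a textbook one, and the hexamers searched for include both of its own. Its match was therefore fixed beforehand and is no result of the search. Among the other pathway genes Cyp26a1, which encodes an enzyme that breaks down retinoic acid, also had such a repeat. The 30 bases around each repeat are shown with the hexamers in capitals, on the gene's strand for Rarb and on the opposite strand for Cyp26a1.
Rarb: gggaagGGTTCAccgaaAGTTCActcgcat
Cyp26a1: acaaattAGTTCAcccaaAGTTCAtcttta
The Rarb stretch is chr14:16575506-16575535 (minus strand), and its repeat spans bases -53 to -37 from the RefSeq start; the annotation GENCODE M21 puts the start of the Rarb transcript measured here at 16575543, a little before the repeat. The Cyp26a1 stretch is chr19:37697770-37697799 (gene on the plus strand), with the repeat at bases -32 to -16. Repeats of the same hexamers with 1 or 2 bases between them were found in 0.222% and 0.268% of windows and in none of the members' windows. A match is a run of letters, and binding was not measured in this study. Of the 31 genes with the repeat spaced by 5 bases, 6 were in the expression table and 5 were tested, with 3 higher (Rarb, Ppbp and Gm4631) and 1 lower (Prss27), while Blvrb did not pass; over all genes tested 45.1% were higher and 22.6% lower, and with 5 genes nothing is read from these counts. Ppbp, a chemokine precursor gene of platelets singled out after its values were seen, had 1213 ± 153 FPKM with BAC and 0.780 ± 0.711 FPKM with PBS (log2 change 9.50, limma adjusted p = 1.39e-08).

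Crabp2 (ENSMUSG00000004885.5, chr3:87948666-87953376, plus strand) encodes cellular retinoic acid-binding protein II, which carries retinoic acid to its receptors in the nucleus. It had 105, 116, 92.6 and 99.9 FPKM in the 4 BAC samples, against 4.34, 2.02, 2.85 and 2.94 FPKM in the 4 PBS samples. Each BAC sample lay far above all PBS samples. The mean was 103 ± 9.89 FPKM with BAC and 3.04 ± 0.964 FPKM with PBS (SD, n = 4 each), 34.0-fold higher (log2 change 4.72, SE 0.16, limma adjusted p = 2.59e-08). Only 0.409% of tested genes had a larger absolute log2 change. By level, Crabp2 was the first of the 9 members with BAC and the fifth with PBS.

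Stra6 (ENSMUSG00000032327.14, chr9:58063788-58153996, plus strand) encodes the membrane receptor that takes retinol from its blood carrier into the cell. It had 7.31, 6.30, 5.63 and 9.99 FPKM in BAC samples, against 0.185, 0.0524, 0.206 and 0.136 FPKM in PBS samples. The PBS values were all close to 0, and the highest BAC value was that of replicate 4. The mean was 7.31 ± 1.92 FPKM with BAC and 0.145 ± 0.0682 FPKM with PBS, 50.5-fold higher, with a log2(FPKM + 1) change of 2.83 (SE 0.15, limma adjusted p = 2.92e-07). Near 0 the added 1 makes such a change smaller than the fold. Stra6 reached the minimum for testing only through the BAC group, which set its direction. The annotated Stra6 gene overlaps Ccdc33, a gene on the opposite strand, over 55036 bases that end at 58118823, and whether counting used strand is not given in the sources used here. The 3 Stra6 transcripts with values start beyond that overlap, the first of them at 58129349, and Ccdc33 was not analysed here.

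Stra6 is known from the retinal pigment epithelium, so markers of pigment epithelium, melanocytes and retina were set beside it. Of the 10 listed markers 8 were in the table and their summed level was 12.2 to 126 FPKM in BAC samples and 4.44 to 58.2 FPKM in PBS samples, with replicate 4 the highest in both groups. Of 5 such markers tested, 1 was lower with BAC (Best1) and none higher, and Rpe65 was not analysed here. Over all genes tested 22.6% were lower and 45.1% higher. The sum was also higher in BAC replicates 1 to 3 (17.3, 12.2 and 19.98 FPKM) than in PBS replicates 1 to 3 (4.44, 6.99 and 6.10 FPKM). Leaving out replicate 4 of both groups, a comparison added after the values were seen, gave a log2 change of 2.69 for Stra6 (limma adjusted p = 2.99e-06). This omission does not remove the difference in these markers, whose part in the Stra6 result was not tested. In this fit too Stra6 was tested only through its BAC values, which set its direction. Ttr and Rlbp1, retinoid carriers of that tissue picked after their values were seen, had 26.0 and 2.57 FPKM in BAC replicate 4 and at most 3.63 and 0.301 FPKM in the other BAC samples. In PBS replicate 4 they had 7.53 and 0.687 FPKM, the highest of that group.

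Rdh10 (ENSMUSG00000025921.7, chr1:16105774-16133734, plus strand) encodes the dehydrogenase that makes retinal from retinol, the first step towards retinoic acid in the mouse embryo. It had 11.6, 11.1, 11.5 and 11.3 FPKM in BAC samples and 5.78, 5.26, 6.07 and 7.59 FPKM in PBS samples. The BAC samples lay close together and above all PBS samples. The mean was 11.4 ± 0.215 FPKM with BAC and 6.17 ± 1.00 FPKM with PBS, 1.84-fold higher (log2 change 0.80, SE 0.10, limma adjusted p = 5.98e-05).

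Dhrs9 (ENSMUSG00000027068.6, chr2:69380445-69404533, plus strand) encodes a short-chain dehydrogenase whose human form oxidises retinol. It had 1.35, 1.10, 2.38 and 1.15 FPKM in BAC samples and was listed at 0 in all 4 PBS samples. Levels in the BAC group were low and replicate 3 was the highest. Its log2(FPKM + 1) change was 1.29 (SE 0.14, limma adjusted p = 3.85e-05), and no fold is given against a group at 0. Only the BAC values brought Dhrs9 to the minimum for testing, which set its direction.

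Dhrs3 (ENSMUSG00000066026.14, chr4:144892827-144928209, plus strand) encodes a reductase that turns retinal back into retinol and thereby works against Rdh10. It had 27.8, 28.8, 25.1 and 22.4 FPKM in BAC samples and 25.0, 26.1, 27.6 and 26.7 FPKM in PBS samples. The groups overlapped fully, with the lowest and the highest value both in BAC samples. Its log2 change was -0.02 with a 95% interval from -0.21 to 0.17 (limma adjusted p = 0.838). All genes together had a median log2 change of 0.19 on the deposited FPKM, relative to which Dhrs3 changed by -0.21. After median-of-ratios scaling, which removes the shift, Dhrs3 passed as lower with a log2 change of -0.23 (limma adjusted p = 0.0308). After quantile normalization Dhrs3 did not pass (log2 change -0.11, limma adjusted p = 0.292). The other 8 members kept their direction and passed with either of 2 other scalings, by the median of ratios and by quantiles.

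Rara (ENSMUSG00000037992.16, chr11:98927818-98974942, plus strand) encodes the receptor RARα, found in most tissues. It had 5.47, 6.20, 5.90 and 6.24 FPKM in BAC samples and 2.54, 2.45, 2.60 and 2.75 FPKM in PBS samples. The samples of each group lay close together, with a gap between the groups. Mean Rara was 5.95 ± 0.354 FPKM with BAC and 2.59 ± 0.129 FPKM with PBS, 2.30-fold higher (log2 change 0.95, SE 0.07, limma adjusted p = 1.86e-06).

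Rarb (ENSMUSG00000017491.9, chr14:16430839-16819156, minus strand) encodes RARβ and is itself a textbook target of retinoic acid through the repeat shown above. It had 2.63, 2.74, 2.72 and 3.07 FPKM in BAC samples and 0.622, 0.353, 0.528 and 0.781 FPKM in PBS samples. All BAC samples lay above all PBS samples. The mean was 2.79 ± 0.193 FPKM with BAC and 0.571 ± 0.179 FPKM with PBS, 4.89-fold higher (log2 change 1.28, SE 0.10, limma adjusted p = 2.77e-06). Cyp26a1, the other pathway gene with that repeat, had 0.599 ± 0.179 FPKM with BAC and 0.337 ± 0.185 FPKM with PBS; the groups overlapped and it was under the minimum for testing. The end of Rarb overlaps Top2b, a gene on the opposite strand, over 4624 bases, with the same doubt about strand. Top2b had 15.2 ± 0.549 FPKM with BAC and 14.2 ± 0.203 FPKM with PBS.

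Rarg (ENSMUSG00000001288.14, chr15:102234938-102257517, minus strand) encodes RARγ, the main RAR of epidermis. It had 38.1, 37.4, 33.5 and 34.3 FPKM in BAC samples and 64.0, 69.1, 76.5 and 69.3 FPKM in PBS samples. All BAC samples lay below all PBS samples. The mean was 35.8 ± 2.28 FPKM with BAC and 69.7 ± 5.13 FPKM with PBS, so PBS corneas had 1.95 times the BAC level (log2 change -0.94, SE 0.07, limma adjusted p = 2.83e-06).

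Rxra (ENSMUSG00000015846.14, chr2:27676440-27762957, plus strand) encodes RXRα, the partner receptor. It had 22.0, 18.8, 13.6 and 18.4 FPKM in BAC samples and 25.6, 26.2, 25.0 and 23.4 FPKM in PBS samples. The groups did not overlap, but BAC replicate 1 and PBS replicate 4 lay near each other. Mean Rxra was 18.2 ± 3.48 FPKM with BAC and 25.1 ± 1.21 FPKM with PBS (log2 change -0.46, SE 0.13, limma adjusted p = 0.00941). In bulk RNA, fewer cells of a type and less RNA per cell cannot be told apart, here and in all other results.

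The RAR mRNA pool thus differed in size and make-up, which is described without a test. The summed FPKM of Rara, Rarb and Rarg was 44.6 ± 2.07 with BAC and 72.9 ± 5.12 with PBS. Rarg made up 80.3% ± 1.66 of it with BAC and 95.7% ± 0.508 with PBS. Rara made up 13.4% ± 1.10 with BAC and 3.56% ± 0.267 with PBS, and Rarb 6.27% ± 0.603 with BAC and 0.788% ± 0.261 with PBS. Rarg was the most abundant RAR in each of the 8 samples. The ratio of summed RAR to Rxra was 2.51 ± 0.425 with BAC and 2.91 ± 0.272 with PBS, ranges that overlap.

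**Figure D2:**
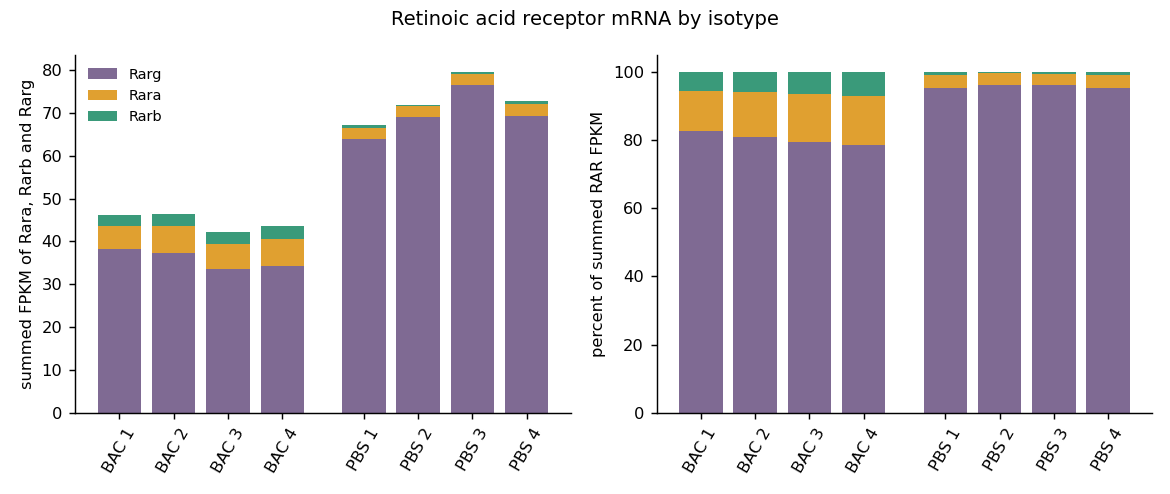
Summed FPKM of the 3 RAR genes (left) and the percent of that sum from each (right), in each BAC and PBS sample. Rarg makes up 78.7% to 82.5% of the sum in BAC samples, against 95.1% to 96.1% in PBS samples.

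In level, the order of the members was Crabp2, Rarg, Dhrs3, Rxra, Rdh10, Stra6, Rara, Rarb and Dhrs9 with BAC, and neighbours overlapped only for Stra6 and Rara. With PBS the order was Rarg, Dhrs3, Rxra, Rdh10, Crabp2, Rara, Rarb, Stra6 and Dhrs9, with overlap between Dhrs3 and Rxra and between Crabp2 and Rara.

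The deposited transcript table held 17 transcripts of the 9 members, all tested. Of these 6 were higher and 3 lower, beside 23% of the 23349 tested transcripts higher, 11.6% lower and 34.6% in either direction (limma, adjusted over all transcripts). Crabp2-201, Rdh10-201, Dhrs9-201 and Rarb-201 were the only listed transcripts of their genes and were higher, and Rxra-201 was lower at a limma adjusted p of 0.0370, which leaving out any of 6 samples raised above the threshold, to at most 0.0875. The 4 Dhrs3 transcripts did not pass, with log2 changes between -0.10 and 0.32; Dhrs3-206 passed without PBS replicate 2 (log2 change 0.51, limma adjusted p = 0.0410). The transcripts of Stra6 and Dhrs9 reached the minimum for testing only through the BAC group. Groups did not overlap for 9 of the 17 transcripts, beside 37.1% of all tested. A gene's value was not the sum of its transcripts: the listed Rarg transcripts summed to 53.3 ± 3.36 FPKM with BAC and 102 ± 7.78 FPKM with PBS, above the gene values.

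Rarg is known to be transcribed from separate starts that give proteins with different N-terminal ends. Rarg-201, from the upstream start, had 14.7, 12.7, 7.55 and 11.1 FPKM in BAC samples and 28.6, 42.9, 32.5 and 47.1 FPKM in PBS samples (log2 change -1.64, SE 0.23, limma adjusted p = 0.000779). Rarg-202, from the downstream start, had 41.1, 42.1, 42.1 and 39.4 FPKM in BAC samples and 64.8, 56.6, 79.4 and 52.9 FPKM in PBS samples (log2 change -0.60, SE 0.12, limma adjusted p = 0.00596). Both were lower in every BAC sample than in every PBS sample. Rarg-205, which begins near the upstream start, had 0.675, 1.10, 0.353 and 0.355 FPKM in BAC samples and 0.702, 0.698, 0.865 and 0.790 FPKM in PBS samples and did not pass (log2 change -0.15, limma adjusted p = 0.575). Rarg-201 made up 21.4% ± 4.60 of the listed Rarg transcripts with BAC and 37.2% ± 8.92 with PBS; its range was 15.1% to 26.1% with BAC and 28.8% to 46.7% with PBS, and whether Rarg-201 and Rarg-202 changed by different amounts was not tested. The 250 bases before each RefSeq start (minus strand, CG pairs in capitals) show how the starts differ in base content.
Rarg upstream start, chr15:102257523-102257772: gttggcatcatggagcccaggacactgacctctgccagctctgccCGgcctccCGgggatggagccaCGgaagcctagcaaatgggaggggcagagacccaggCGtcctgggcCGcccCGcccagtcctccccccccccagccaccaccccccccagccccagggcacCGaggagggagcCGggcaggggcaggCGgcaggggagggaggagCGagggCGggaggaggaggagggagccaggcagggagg
Rarg downstream start, chr15:102246501-102246750: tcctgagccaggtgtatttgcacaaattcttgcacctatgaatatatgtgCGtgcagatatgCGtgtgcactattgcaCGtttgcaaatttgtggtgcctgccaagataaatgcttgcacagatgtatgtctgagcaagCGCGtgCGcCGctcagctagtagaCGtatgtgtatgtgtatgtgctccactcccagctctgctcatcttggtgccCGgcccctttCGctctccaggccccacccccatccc
Neither stretch holds an annotated exon in GENCODE M21. G and C make up 74.4% of the first and 52.4% of the second, against a median of 52.4% over the same stretch of all windows, and CG pairs number 11 and 10, against a median of 6.

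The split of Rara and Stra6 between transcripts varied within the BAC group. Rara-202, from the downstream start, had 7.09, 7.46, 3.55 and 4.23 FPKM in BAC samples and 0.972, 1.13, 1.68 and 1.22 FPKM in PBS samples (log2 change 1.51, SE 0.24, limma adjusted p = 0.00157). Rara-204, from the upstream start, was listed at 0 in BAC replicates 1 and 2 and had 5.70 and 5.48 FPKM in BAC replicates 3 and 4, against 3.22, 2.66, 2.39 and 3.27 FPKM in PBS samples, and did not pass (limma adjusted p = 0.570). Stra6-201 was listed at 0 in BAC replicate 1 and had 11.1, 9.56 and 17.1 FPKM in the other BAC samples, and it was listed at 0 in all PBS samples. Stra6-213, which starts further downstream, had 10.1 FPKM in BAC replicate 1, 0.338 FPKM in BAC replicate 4 and was listed at 0 in the other 6 samples. The Stra6 transcripts together had 14.3, 11.8, 10.6 and 18.8 FPKM in BAC samples and 0.351, 0.0993, 0.390 and 0.258 FPKM in PBS samples, so the sum is steadier than the split. Stra6-214, the only Stra6 transcript above 0 in PBS samples, had 4.26, 0.705, 1.05 and 1.32 FPKM in BAC samples and the PBS values just given (log2 change 1.01, limma adjusted p = 0.0533); it passed without BAC replicate 1 (log2 change 0.66, adjusted p = 0.0260) or BAC replicate 2 (1.20, 0.0356), and on all samples with a pseudocount of 0.1 (2.13, 0.0253). Stra6-201 passed at a limma adjusted p of 0.0342 on all samples, but not without any single sample other than BAC replicate 1, with values between 0.0703 and 0.0852.

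**Figure D3:**
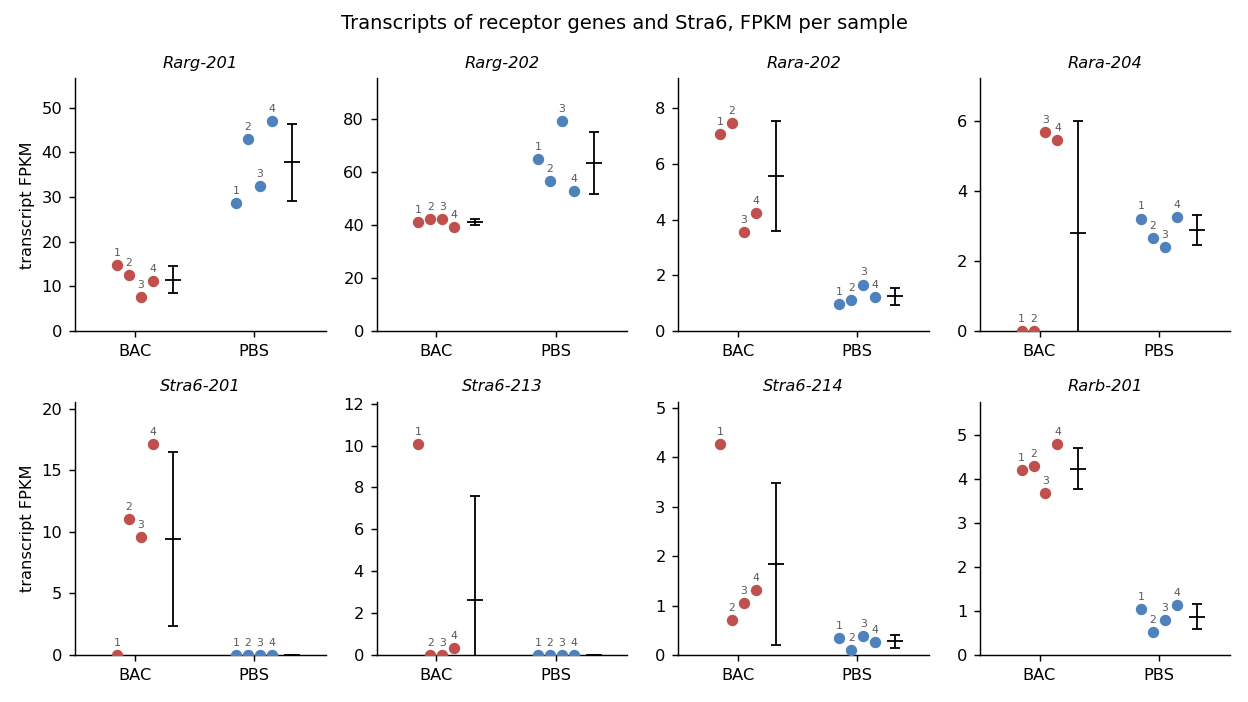
Transcript FPKM of Rarg, Rara, Stra6 and Rarb in each sample, with BAC left of PBS; points are samples with their replicate numbers and black marks the mean ± SD of 4 samples, cut off at 0. Rarg-201 and Rarg-202 are lower in all BAC samples, while Rara-204 and Stra6-201 are listed at 0 in some BAC samples and not in others.

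Around the members, 58 other genes of the pathway were listed, 41 of them were in the table and 38 were tested. Of these 17 were higher and 13 lower, that is 44.7% and 34.2% of those tested, beside 45.1% and 22.6% of all genes. The median log2 change was 0.19 over the list and 0.19 over all genes tested. Scaled by the median of ratios, 12 rose and 15 fell, and quantile-normalized values gave 11 and 15.

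Of the carriers of retinoids 2 were higher and 1 lower among 4 tested, beside 45.1% and 22.6% of all genes tested. Rbp2, a retinol carrier known from the gut, was the lower gene, at 172 ± 27.0 FPKM with BAC and 385 ± 17.1 FPKM with PBS (log2 change -1.17, limma adjusted p = 7.26e-06). Fabp5, a fatty acid carrier of epidermis that also binds retinoic acid, had 174 ± 15.7 FPKM with BAC and 33.3 ± 5.60 FPKM with PBS (log2 change 2.36). Crabp1, the other cellular retinoic acid-binding protein, had 14.2 ± 3.14 FPKM with BAC and 3.02 ± 0.784 FPKM with PBS (log2 change 1.91). The ratio of Crabp2 to Fabp5 FPKM was 0.598 ± 0.0982 with BAC and 0.0933 ± 0.0327 with PBS.

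For uptake, storage and the cleavage of carotenoids, 2 of 4 tested genes were higher and 2 lower. Over all genes tested 45.1% were higher and 22.6% lower. The lipoprotein receptor gene Scarb1 and the acyltransferase gene Dgat1 rose 1.80-fold and 2.28-fold. Bco1, whose product cleaves β-carotene into retinal, had 0.249 ± 0.0687 FPKM with BAC and 1.97 ± 0.139 FPKM with PBS (log2 change -1.25). It reached the minimum for testing only through the PBS group, which set its direction. Its relative Bco2 fell by 0.57 on the log2 scale (limma adjusted p = 0.0234), which did not pass without PBS replicate 1 (0.0606) or PBS replicate 2 (0.0564).

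Of 12 tested oxidoreductases of retinol and retinal 5 were higher and 3 lower. These shares, 41.7% and 25%, were near those of all genes tested, 45.1% and 22.6%. Both abundant alcohol dehydrogenases able to oxidise retinol fell. Adh1 had 78.3, 74.8, 88.0 and 72.2 FPKM in BAC samples and 552, 476, 489 and 524 FPKM in PBS samples (log2 change -2.69, limma adjusted p = 1.42e-08), and Adh7 had 119 ± 7.62 FPKM with BAC and 317 ± 21.9 FPKM with PBS (log2 change -1.41). Together they summed to 197 ± 2.43 FPKM with BAC and 827 ± 50.7 FPKM with PBS, far above Rdh10 in both groups. Dhrs7 rose by 0.79 and the retinol saturase gene Retsat fell by 0.64 on the log2 scale.

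The enzymes that make retinoic acid from retinal moved apart. Aldh1a1 had 4.71, 4.25, 5.94 and 10.02 FPKM in BAC samples and 56.6, 50.3, 44.6 and 47.6 FPKM in PBS samples (log2 change -2.87, SE 0.21, limma adjusted p = 2.18e-06). Aldh1a3 had 133, 134, 129 and 180 FPKM in BAC samples and 50.8, 51.9, 46.1 and 43.0 FPKM in PBS samples (log2 change 1.56, SE 0.11, limma adjusted p = 2.11e-06). Aldh1a2 had 10.1, 10.5, 13.1 and 6.71 FPKM in BAC samples and 0.824, 0.657, 1.86 and 1.45 FPKM in PBS samples (log2 change 2.34, SE 0.22, limma adjusted p = 1.13e-05). For none of the 3 did the groups overlap. Their sum was 160 ± 24.1 FPKM with BAC and 98.9 ± 7.97 FPKM with PBS. Aldh1a3 held 89.7% ± 1.83 of that sum with BAC and 48.5% ± 1.94 with PBS, whereas Aldh1a1 held 3.79% ± 1.00 with BAC and 50.3% ± 2.05 with PBS.

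Cyp26b1, which encodes a hydroxylase that clears retinoic acid, had 3.63, 4.81, 4.22 and 5.73 FPKM in BAC samples and 13.8, 24.3, 28.5 and 19.5 FPKM in PBS samples. It was lower in every BAC sample (log2 change -1.98, SE 0.21, limma adjusted p = 2.34e-05). Of the other receptors, Rxrb had 8.00 ± 0.563 FPKM with BAC and 6.22 ± 0.698 FPKM with PBS and passed as higher (log2 change 0.32, limma adjusted p = 0.00917), but not after median-of-ratios scaling or quantile normalization, at 0.13 and 0.08. Ppard, a receptor for fatty acids that also pairs with RXR, had 8.62 ± 0.718 FPKM with BAC and 7.68 ± 0.363 FPKM with PBS, short of the threshold (log2 change 0.15, limma adjusted p = 0.103).

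**Figure D4:**
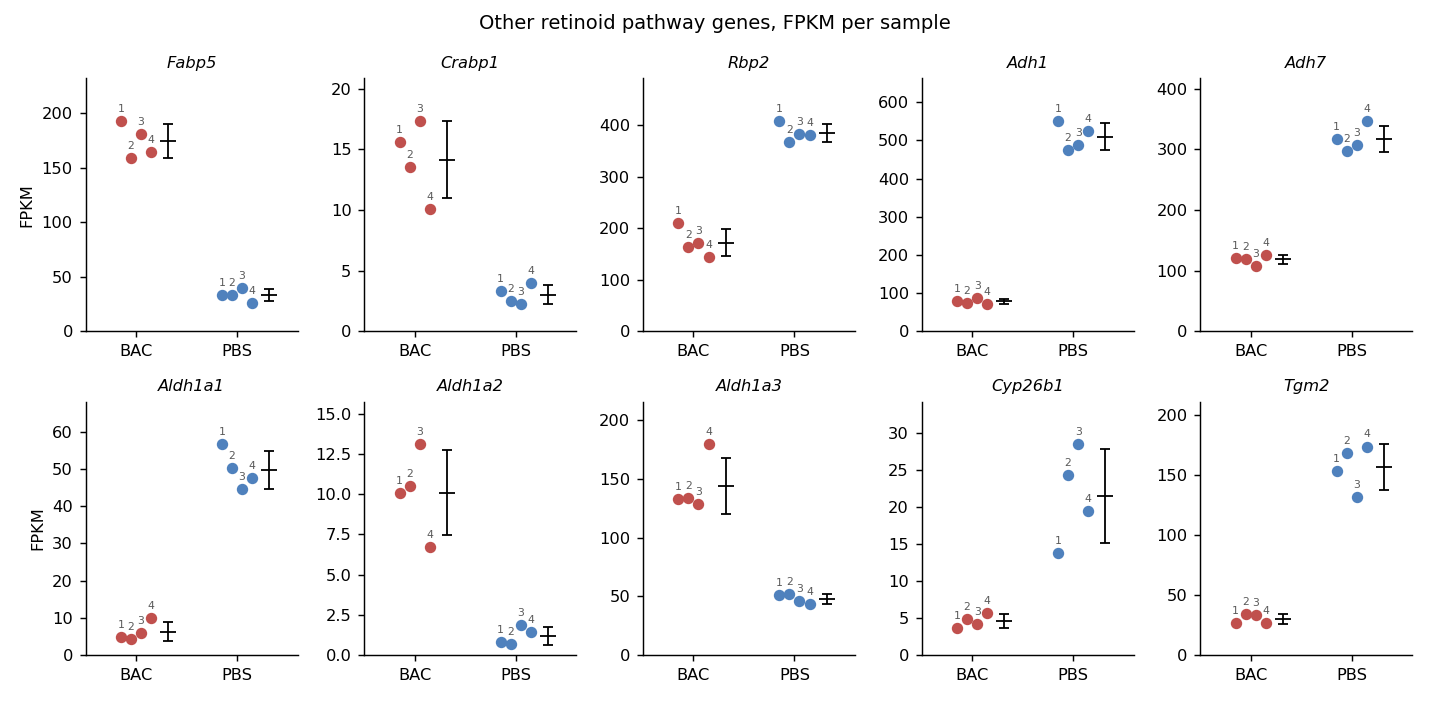
FPKM of 10 other pathway genes in each sample, with BAC left of PBS; points are samples with their replicate numbers and black marks the mean ± SD of 4 samples. Fabp5, Crabp1, Aldh1a2 and Aldh1a3 are higher in all BAC samples, and Rbp2, Adh1, Adh7, Aldh1a1, Cyp26b1 and Tgm2 are lower in all of them.

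All 7 coregulators of nuclear receptors on the list were tested, with 2 higher and 3 lower, beside 45.1% and 22.6% of all genes. The coactivator genes Ncoa3 and Ncoa1 fell by 0.49 and 0.39 and Nrip1, a ligand-dependent corepressor gene, fell by 0.47 on the log2 scale. Hdac3, a deacetylase of corepressor complexes, was 1.19-fold higher and did not pass after median-of-ratios scaling (log2 change 0.03) or quantile normalization (0.12). Of 5 tested genes named for, or known from, their response to retinoic acid, 3 were higher and 2 lower, beside the same shares. Tgm2, a transglutaminase induced by retinoic acid in many cells, had 30.2 ± 4.09 FPKM with BAC and 157 ± 19.0 FPKM with PBS (log2 change -2.34). Gprc5a, an orphan receptor, had 16.0 ± 3.07 FPKM with BAC and 107 ± 12.5 FPKM with PBS (log2 change -2.68). Rai14 and Rarres2, the gene of the chemoattractant chemerin, rose by 1.299 and 1.72 on the log2 scale.

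**Figure D5:**
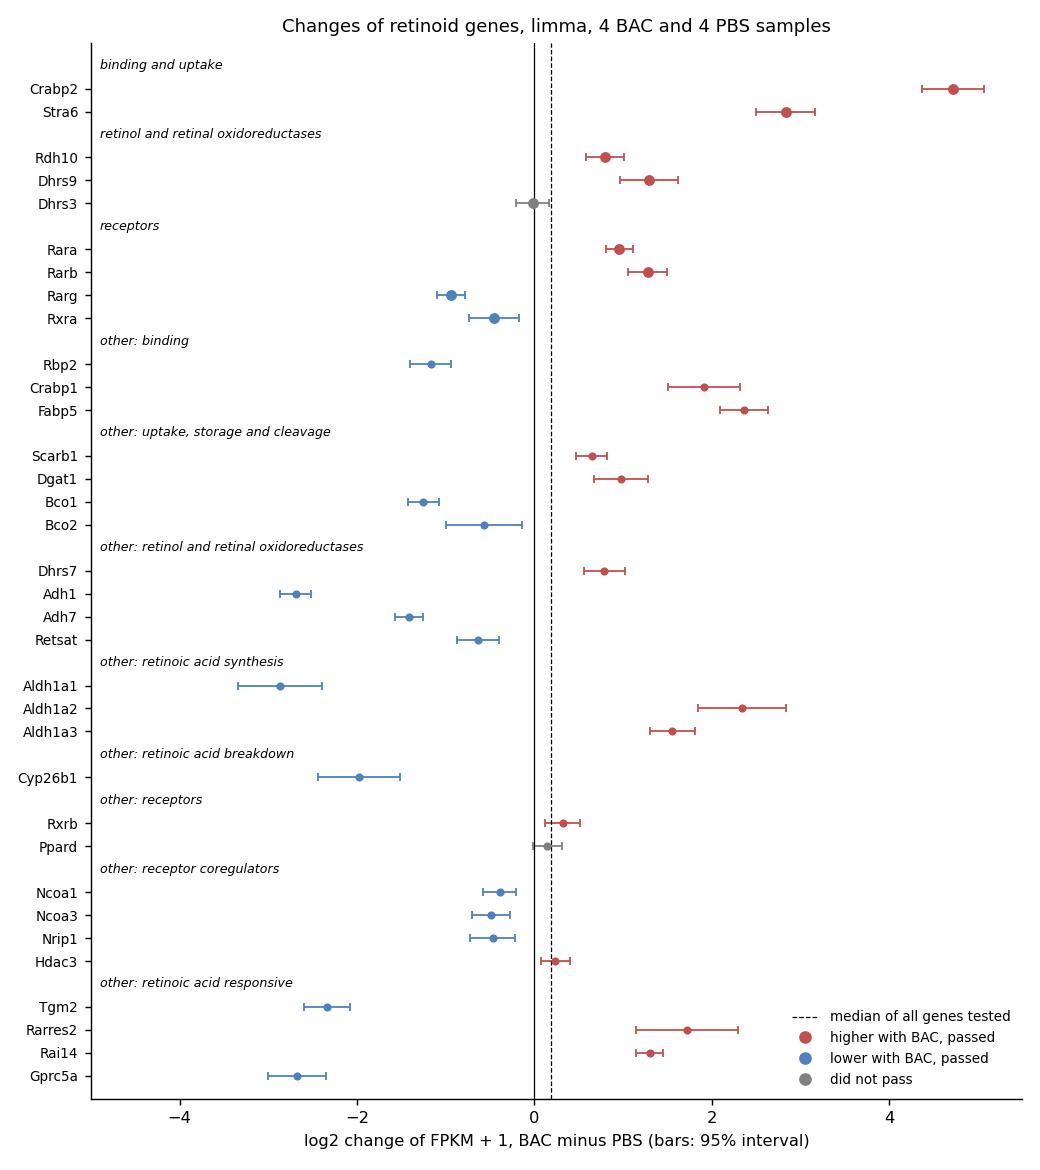
Log2 change of FPKM + 1, BAC minus PBS, with 95% intervals, for the 9 members (large points) and the named pathway genes (small points), grouped by role. The dashed line marks the median of all genes tested, 0.19; Crabp2, at 4.72, lies farthest to the right and Aldh1a1, at -2.87, farthest to the left.

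The corneas differed in markers of several cell types, whose part in the changes of retinoid genes was not tested. Each count of markers below stands beside 45.1% of all genes tested higher and 22.6% lower. Of 10 corneal epithelial markers 7 were lower and 2 higher, and they summed to 5149 to 6365 FPKM in BAC samples and 23329 to 24881 FPKM in PBS samples. Krt12, the keratin that defines corneal epithelium, had 14.96, 9.05, 8.50 and 9.69 FPKM in BAC samples, against 10033, 10586, 10370 and 10311 FPKM in PBS samples (log2 change -9.84, limma adjusted p = 6.00e-10). Aldh3a1, a corneal crystallin, had 338 ± 77.3 FPKM with BAC and 6015 ± 408 FPKM with PBS. Most of the BAC sum came from the basal keratins Krt14, at 2510 ± 331 FPKM with BAC and 229 ± 29.1 FPKM with PBS, and Krt5, at 2031 ± 224 FPKM with BAC and 5557 ± 276 FPKM with PBS, which other stratified epithelia also make. All 10 leukocyte markers rose (744 to 1003 FPKM with BAC, 11.3 to 22.2 FPKM with PBS). Of these, Itgb2, Ptprc, Csf3r and Coro1a reached the minimum for testing only through the BAC group, which set their direction. All 8 markers of vascular endothelium were also higher (123 to 156 FPKM with BAC, 7.44 to 16.96 FPKM with PBS). Of 10 stromal markers 8 were higher and 1 lower (2235 to 2888 FPKM with BAC, 548 to 1098 FPKM with PBS). The lower one was Kera, at 42.0 ± 16.3 FPKM with BAC and 149 ± 49.0 FPKM with PBS, and Dcn did not pass. Of 8 conjunctival and goblet cell markers 6 were in the table, with 5 higher and 1 lower (2225 to 3129 FPKM with BAC, 938 to 1290 FPKM with PBS). Most of that sum was Krt13, at 1428 ± 289 FPKM with BAC and 859 ± 107 FPKM with PBS, and Krt4. Fcgbp was the lower one, at 0.721 ± 0.327 FPKM with BAC and 5.80 ± 1.07 FPKM with PBS, whereas Agr2 was higher. The goblet cell genes Muc5ac and Spdef were not analysed here. Of the 6 Schwann cell markers, among which Sox10 and Cdh19 were tested only through their BAC values, 1 was higher and 1 lower (15.9 to 27.7 FPKM with BAC, 24.3 to 26.9 FPKM with PBS). Of 7 tested lens markers 1 was lower (Cryab). The lens sum was 10.2 to 13.4 FPKM in BAC samples and 137, 42.7, 25.9 and 26.1 FPKM in PBS samples, so that PBS replicate 1 stood apart. Much of the sum was Cryab, at 54.4, 38.4, 23.1 and 22.7 FPKM in PBS samples and 7.35 ± 0.914 FPKM with BAC. Crygs had 31.8 FPKM in PBS replicate 1 and at most 0.619 FPKM in any other sample. Mip, a lens channel gene, was listed at 0 in every sample but PBS replicate 1 (5.98 FPKM) and did not pass.

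Genes with the most similar pattern over the 8 samples are given as a description, since any gene that differs strongly between the groups correlates with any other. Among genes with a mean of at least 2 FPKM, the 2 highest Pearson r were 0.9994 with Rhobtb3 and 0.9993 with Tcirg1 for Crabp2, and 0.9988 with Evi2b and 0.9979 with Lmna for Stra6. For Rdh10 they were 0.9964 with Angel2 and 0.9957 with H2-M3, and for Dhrs9 0.9983 with Mmp12 and 0.9965 with Nup88. Among the receptors they were 0.9993 with Ext2 and 0.9983 with Fam105a for Rara, and 0.9995 with Podxl and 0.9988 with Nfib for Rarb. For Rarg they were 0.9971 with Wnk2 and 0.9967 with Samd10, and for Rxra 0.9804 with Dgcr6 and 0.9803 with Cpeb4. For Dhrs3, whose groups overlapped, they were 0.9286 with Pld2 and 0.9248 with Cog6.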

How the data were processed

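RNA from 4 BAC and 4 PBS cornea samples was extracted with Trizol and made into libraries with a KAPA stranded RNA kit, per the labels' protocols. The authors deposited FPKM values per gene and per transcript. The submitters' processing notes name HISAT2 2.1.0, StringTie 1.3.3 and GRCm38, with no role for each. Summed FPKM was 268629 to 283538 per sample. Depth is unknown, since no counts were used here, so no counting interval can be given and low values are the least certain. Genes listed at 0 numbered 56 to 84 in BAC samples and 281 to 403 in PBS samples. Pearson r between samples of a group was 0.977 to 0.986 on log2(FPKM + 1).

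Genes with a mean of at least 0.5 FPKM over the 8 samples were tested on log2(FPKM + 1), BAC minus PBS, with limma 3.58.1 in R 4.3.3 (trended prior, 8 samples, no covariate), adjusted by Benjamini-Hochberg over all 12967 genes, and likewise over 23349 of 25635 transcripts. The threshold was an adjusted p of 0.05, and folds are ratios of mean FPKM. The procedure was run on simulated data with only a small share of rows changed, unlike the deposited tables. That run does not vouch for the calls made here. Replicate numbers served only as names. The alternatives were another pseudocount, filter, scaling or prior, array weights, a replicate block and leaving out samples. Count-based tests were not run. The authors' tables of comparisons were not used.

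The members, the pathway list and the marker lists were chosen with earlier results of these data known. A pathway gene is not reported here and was left out of the list, though not out of the fit. Named were all members and their transcripts, within each pathway role up to 4 genes with the smallest adjusted p past the threshold, and every gene of retinoic acid synthesis, breakdown and the receptors in the table. For each member the 2 genes with the highest Pearson r over the 8 samples, among genes with a mean of at least 2 FPKM, were also named.

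Promoter windows came from RefSeq (GRCm38.p6) and transcript starts from GENCODE M21, whose coordinates of the 9 members were identical to those in the deposited table. Windows were found for 7 members; Crabp2 and Rdh10 were not matched.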

Additional observations from a re-analysis of the deposited data

Results flagged for a closer look

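In 6 of 104 groups of 4 samples, 1 sample stood apart from the other 3 by Dixon's criterion, which chance alone meets in about 1 in 20 groups. Stra6-213 had 10.1 FPKM in BAC replicate 1, where the nearest other BAC sample had 0.338 FPKM. Aldh1a3 had 180 FPKM in BAC replicate 4, where the nearest other BAC sample had 134 FPKM. Rai14 had 17.1 FPKM in BAC replicate 3, against 15.9 FPKM in the nearest other BAC sample. Scarb1 had 2.62 FPKM in PBS replicate 4, with 2.31 FPKM in the nearest other PBS sample. Dhrs7 had 6.89 FPKM in PBS replicate 4, with 5.06 FPKM in the nearest other PBS sample. Hdac3 had 15.2 FPKM in PBS replicate 2, below the nearest other PBS sample at 17.3 FPKM.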

How the results depend on the processing

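FPKM without counts gives no depth, so differences of low genes are the least certain. The counts of members higher and lower, 6 and 2, were the same with any single sample left out, and a minimum of 2 FPKM, which leaves out Dhrs9 and Rarb, gave 4 and 2. The counts of calls to move by more than 1.5 times were, after quantile normalization, 4990 lower among all genes, against 2926 on the deposited FPKM, and 11 higher among the pathway genes, against 17. Log2 changes that did not pass turned sign in Dhrs3 with array weights (0.0124) and without replicate 4 of both groups (0.0529), and in Ppard with median-of-ratios scaling (-0.0498) and quantile normalization (-0.0676). They turned in Dhrs3-202 (-0.0828) and Dhrs3-207 (-0.1761) with quantile normalization, in Dhrs3-207 with median-of-ratios scaling (-0.0191) and in Dhrs3-205 without replicate 4 of both groups (0.0638). With single samples left out, the log2 change ran from -0.069 to 0.0467 for Dhrs3, from -0.2279 to -0.0111 for Dhrs3-205, from -0.3474 to 0.602 for Dhrs3-202 and from -0.1261 to 0.4523 for Dhrs3-207. The cause of these changes was not tested. Among the named pathway genes, 6 calls were lost, for Bco2, Rxrb and Hdac3, and otherwise none.

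With the replicate number as a block, 6 members were higher and 2 lower, and of the pathway genes 17 and 13. Of all genes 5693 were higher and 2826 lower, and of the members' transcripts 5 and 2, the calls of Stra6-201 and Rxra-201 being lost (adjusted p = 0.0528 and 0.0570, limma). Deviations of same-numbered samples correlated at 0.0527, 0.109, 0.1206 and 0.1138, for replicates 1 to 4. Each PBS sample correlated best with the BAC sample of its number, as did BAC replicates 2, 3 and 4 with theirs, whereas BAC replicate 1 correlated best with PBS replicate 2 (0.1041). This hints at pairing, but a shared number was taken to pair samples only with every correlation over 0.1, and the labels name no shared source.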
